A study of Mus musculus with 9 samples.

Results

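The 6 actin isoform genes of the mouse, Acta1, Acta2, Actg2, Actc1, Actb and Actg1, were followed on expression arrays of NIH 3T3 cells, an established line of mouse fibroblasts. Every probe set that the platform annotation gives to exactly 1 of these symbols was taken, which gave 12 of the 45101 probe sets on the array, for 6 of 18194 genes named by a single symbol. Actb has 5 of them, Acta2 has 3, and Acta1, Actg2, Actc1 and Actg1 have 1 each. The 9 arrays fall into 3 groups of 3: a control, cytochalasin D at 2 µM for 90 min, and latrunculin B at 5 µM together with cytochalasin D at 2 µM, also for 90 min. All cultures, the controls included, had been serum-starved and were given cycloheximide, an inhibitor of translation, at 3 µg/ml for 2 h, so the RNA was measured with protein synthesis inhibited. The labels state normal F-actin for controls and depolymerized F-actin for both drug groups. For the last group, sample titles mention only latrunculin B; its treatment is given as both drugs in the agent label and in the design, which were followed. The design describes the 3 arrays of a condition as independent biological replicates, which carry the numbers 1, 3 and 7.

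Actin is the monomer from which microfilaments are built. Acta1 (skeletal muscle alpha-actin), Actc1 (cardiac alpha-actin), Acta2 (vascular smooth muscle alpha-actin) and Actg2 (enteric smooth muscle gamma-actin) are named for muscle, and Actb and Actg1 encode the cytoplasmic beta- and gamma-actins found in nearly every cell. The monomer also regulates transcription: it binds the coactivators MRTF-A and MRTF-B and keeps them from serum response factor (SRF), whose binding element, the CArG box, lies in front of actin genes and many genes of the cytoskeleton. Cytochalasin D caps filament ends, also binds monomers and frees MRTF from them, whereas latrunculin B binds monomers in a way that leaves MRTF bound. The series title speaks of a switch made of monomeric actin. The comparison of the 2 drug groups asks which transcripts differ when latrunculin B is given together with cytochalasin D. No group had latrunculin B alone.

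The fibroblast identity of the cultures was checked first. Of 12 fibroblast markers, 11 had an intensity above 100 on all 9 arrays, among them Col1a2, Col3a1 and Vim, and Lum, a proteoglycan of connective tissue, was near the bottom of the scale at 5.02 to 5.20. None of the 11 skeletal muscle markers reached 100 on any array, and the muscle regulators Myod1 (4.34 to 4.42) and Myog (5.81 to 6.13) stayed at the lowest levels throughout. The summed intensity of the skeletal muscle list was 70.9 to 74.6 in controls, 72.3 to 74.0 with cytochalasin D and 73.1 to 74.6 with both drugs. The cardiac list had 1 member that moved: Nkx2-5, a homeobox factor of the heart, went from 80.0 ± 3.86 to 315 ± 60.9 with cytochalasin D (SD, n = 3; limma, adjusted p = 0.00695), and its summed level went from 147 to 162 in controls to 325 to 448. How Nkx2-5 relates to the actin values was not tested. The 9 array medians ran from 7.55 to 7.83, so an intensity of 8 or less is near or under the middle of an array; the files give no detection calls.

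Cross-hybridisation bears on every value that follows. The actin proteins are nearly identical and their coding sequences much alike, so a probe for 1 isoform may also bind another's transcript. In the maker's naming, the suffix _s_at marks probe sets shared by transcripts of more than one gene, which is the case for the main Acta2 probe set and for that of Actg1, and _a_at marks probe sets that read several transcripts of 1 gene. The probe sequences were not used here, and the part of cross-hybridisation in these values was not tested. Probe sets are therefore described 1 by 1. Where the readings of a pair are combined, it is within an array, and only how that value differs between groups is described.

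Acta1 parted the 2 drug groups most widely of all actin probe sets. Its probe set 1427735_a_at read 18.7, 20.4 and 18.5 in controls (replicates 1, 3 and 7), 799, 995 and 1710 with cytochalasin D, and 35.4, 70.4 and 62.3 with both drugs. The cytochalasin D arrays stand far above the other 6, and the arrays with both drugs lie a little above the controls without overlap. The group means were 19.2 ± 1.07, 1168 ± 479 and 56.0 ± 18.3 (SD, n = 3), so that the mean with cytochalasin D was 60.9 times that of controls and 20.9 times that with both drugs. On the log2(intensity + 16) scale used for all tests, the rise with cytochalasin D was 5.00 (SE 0.30, limma, Benjamini-Hochberg adjusted p = 0.00115). Against the group with both drugs it was also higher (95% interval 3.28 to 4.72, adjusted p = 0.0113), a call that ended without control replicate 3 or without any 1 of the 3 arrays with both drugs (adjusted p = 0.0516 to 0.0697), and in a fit on the 6 arrays of these groups alone (adjusted p = 0.0815). The difference of Acta1 between both drugs and control had a 95% interval of 0.28 to 1.72 and did not pass (adjusted p = 0.618).

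Actg2 followed the same order with a smaller span. Probe set 1422340_a_at read 15.4, 10.4 and 10.4 in controls, 159.5, 147 and 125 with cytochalasin D, and 20.0, 21.1 and 12.5 with both drugs. Controls and the double-drug arrays overlapped, and all 3 cytochalasin D arrays were above both. The rise with cytochalasin D was 2.51 (SE 0.13, adjusted p = 0.000926) against controls and 2.24 (SE 0.13, adjusted p = 0.00729) against both drugs, and both calls held with each array left out in turn; the second ended in a fit on the 6 arrays of those groups alone (adjusted p = 0.0551). With both drugs the difference from controls was 0.26 (95% interval -0.05 to 0.58), which did not pass.

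Acta2, the smooth muscle isoform that marks activated fibroblasts, was bright in controls already. Its main probe set 1416454_s_at read 5884, 5361 and 3634 in controls, 19954, 22063 and 19808 with cytochalasin D, and 9498, 11177 and 9060 with both drugs. The 3 groups did not overlap, and the arrays with both drugs lay between the others. The mean was 4.16 times the control mean with cytochalasin D and 2.00 times with both drugs. The rise with cytochalasin D was 2.08 (SE 0.18, adjusted p = 0.00337). Neither step of the intermediate group passed: it was 1.02 above controls (95% interval 0.59 to 1.45, adjusted p = 0.166) and 1.06 below cytochalasin D (95% interval 0.63 to 1.49, adjusted p = 0.148). The latter passed without control replicate 7, the lowest control (adjusted p = 0.0365).

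The other 2 Acta2 probe sets were dim in controls and rose with cytochalasin D. Probe set 1456658_at read 4.51, 4.44 and 4.44 in controls, 86.1, 216 and 116 with cytochalasin D, and 10.1, 15.7 and 8.11 with both drugs. Probe set 1444105_at read 6.18, 5.93 and 6.25 in controls, 36.4, 43.6 and 26.2 with cytochalasin D, and 6.61, 6.40 and 6.42 with both drugs. With both drugs the first of these read 2.54 times the control mean, without overlap, and the main Acta2 probe set 2.00 times. The second was near or under the array median in both groups, where a difference of that size may not be readable. Rises with cytochalasin D were 2.84 (SE 0.28, adjusted p = 0.00536) and 1.20 (SE 0.11, adjusted p = 0.00419), understated by the added 16 at such low intensities; in a fit on the 6 arrays of these groups alone neither passed (adjusted p = 0.0599 and 0.0582). Against both drugs they were 2.43 (adjusted p = 0.0385) and 1.18 (adjusted p = 0.0245), and neither passed without the filter (adjusted p = 0.0851 and 0.0593). The call of 1456658_at against both drugs was lost in 7 of the 9 fits that leave out 1 array and held without cytochalasin D replicate 1 or 3. That of 1444105_at was lost in 6 and held without control replicate 1 or cytochalasin D replicate 3 or 7; lost calls had adjusted p = 0.0571 to 0.186. Probe set 1456658_at passed the filter on dim values through the 6 drug-treated arrays, since its controls were below it, so its being tested depended on the groups in which it was high. Where on the Acta2 locus these probe sets lie is not given in the sources used here.

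Actc1 stayed at the lower end of the scale. Probe set 1415927_at read 6.05 to 6.21 in controls, 6.18 to 6.53 with cytochalasin D and 6.14 to 6.21 with both drugs, and it exceeded the 40th percentile of the array on 2 arrays, where the filter asked for 3. It was therefore not tested, and the cardiac isoform was not detectable as changed at this intensity. With the filter dropped its change with cytochalasin D was 0.01 (adjusted p = 0.918).

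**Figure D1:**
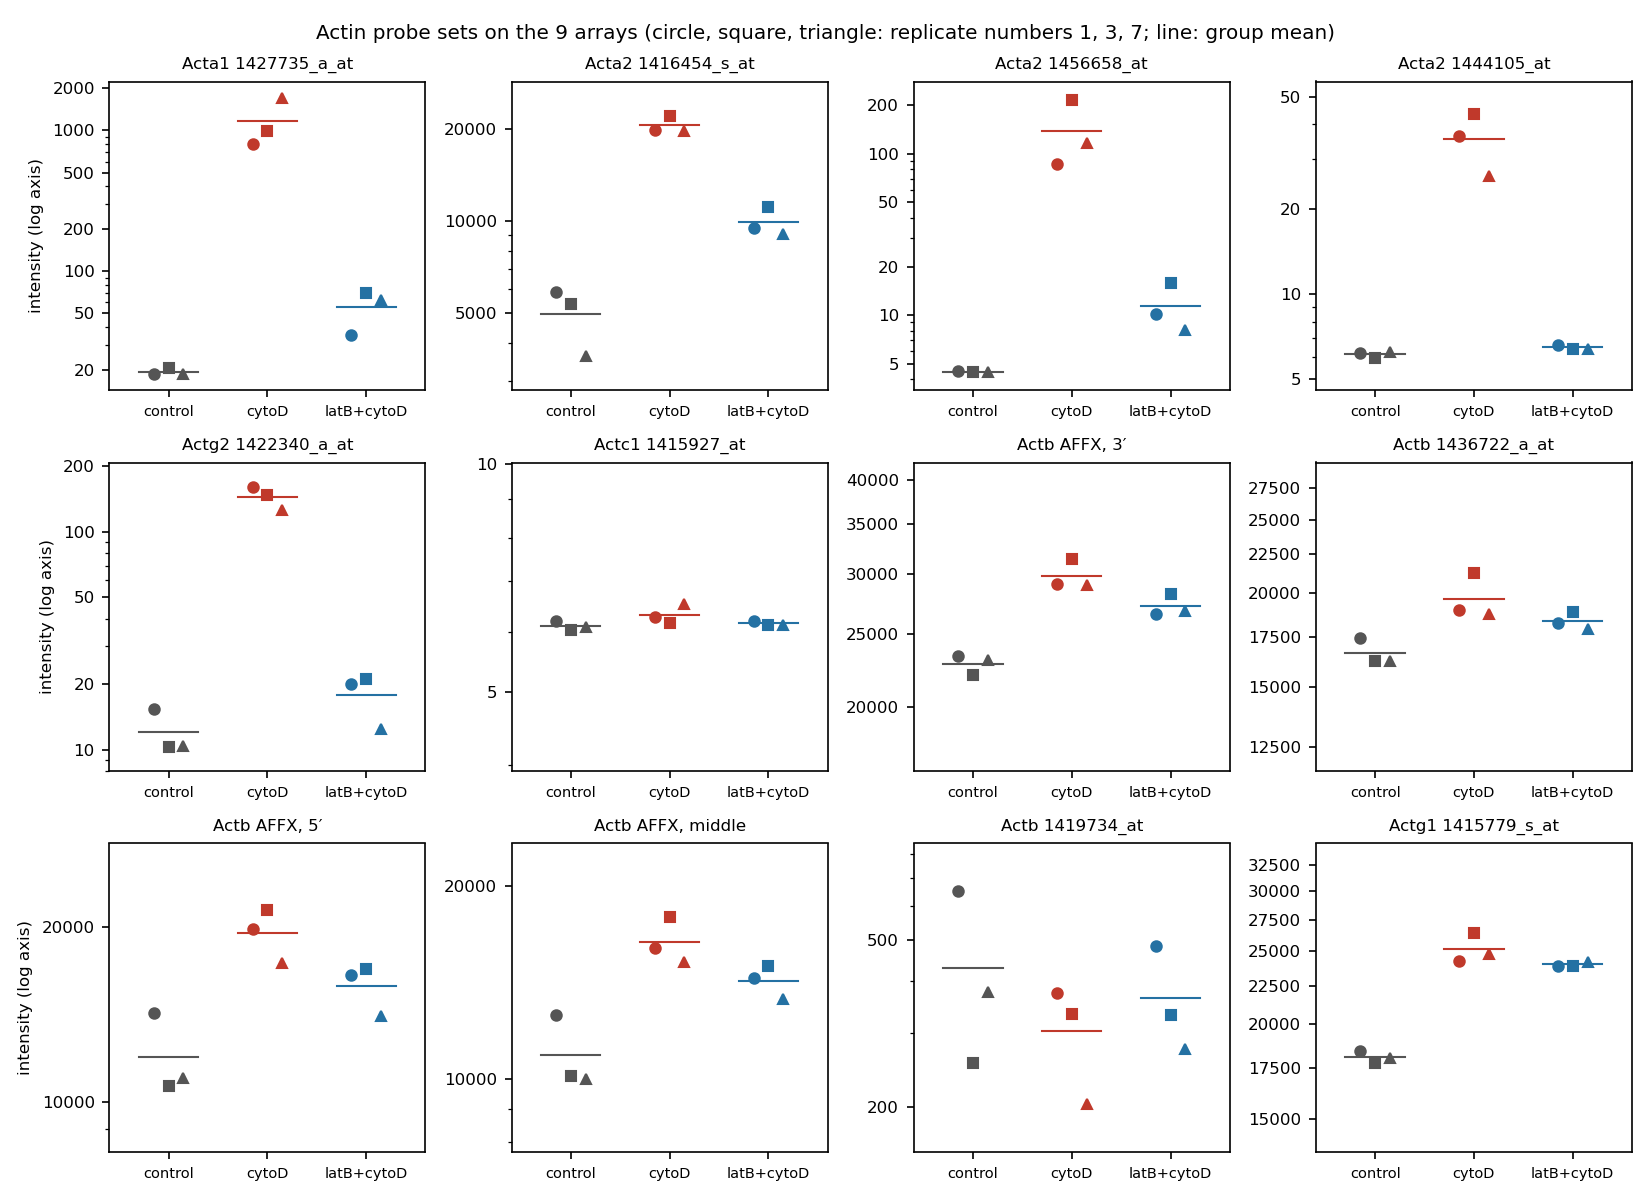
Intensity (log axis) of each of the 12 actin probe sets on the 9 arrays, by group; circles, squares and triangles are replicates 1, 3 and 7 and lines are group means. Acta1, Actg2 and the dim Acta2 probe sets are highest with cytochalasin D. With both drugs Acta1, 1456658_at and the main Acta2 probe set lie between the other groups (2.92, 2.54 and 2.00 times the control mean). None of these differences from controls passed, and the controls of 1456658_at are below the filter. Actg1 with both drugs is close to its level with cytochalasin D.

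Actg1, cytoplasmic gamma-actin, rose in both drug groups. Probe set 1415779_s_at read 18477, 17783 and 18087 in controls, 24259, 26437 and 24804 with cytochalasin D, and 23924, 23924 and 24193 with both drugs. All 6 drug-treated arrays were above all 3 controls. The cytochalasin D arrays (lowest 24259) were narrowly above those with both drugs (highest 24193). The rise was 0.47 with cytochalasin D (SE 0.03, adjusted p = 0.00175) and 0.41 with both drugs (SE 0.03, adjusted p = 0.0213), or 1.39 and 1.33 times the control mean. Between the drug groups the difference was 0.07 with a 95% interval of -0.01 to 0.14, which did not pass; a rise of the size seen in Acta1 or Actg2 in that comparison lies outside the interval. The call with both drugs was lost in 6 of the 9 fits that leave out 1 array (adjusted p = 0.0579 to 0.127) with arrays scaled to the same median (adjusted p = 0.0819) and in a fit on 6 arrays (adjusted p = 0.0709). It held without control replicate 1 or cytochalasin D replicate 3 or 7, and in all of these fits the change stayed between 0.39 and 0.42. Replicates 1 and 3 with both drugs read 23924 alike, so the small SD of that group, 155, rests partly on a tied value.

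Actb, cytoplasmic beta-actin and a common reference gene for expression measurements, is read by 5 probe sets that gave unlike results. The array carries 3 of them as control probe sets placed along the transcript, at its 5′ part, its middle and its 3′ part. The 3′ one read 23394, 22066 and 23106 in controls, 29133, 31444 and 29052 with cytochalasin D, and 26597, 28269 and 26845 with both drugs. Here the 3 groups did not overlap, with both drugs again in the middle. Its rise with cytochalasin D was 0.39 (SE 0.04, adjusted p = 0.00756), a call lost in the fit on 6 arrays (adjusted p = 0.0576) and with arrays scaled to the same median (adjusted p = 0.0554). With both drugs the difference from controls was 0.25 (95% interval 0.15 to 0.35, adjusted p = 0.14), which did not pass.

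The 5′ and middle Actb control probe sets had larger differences and wider spreads. The 5′ one read 14241, 10674 and 11024 in controls, 19794, 21369 and 17354 with cytochalasin D, and 16506, 16952 and 14063 with both drugs. The middle one read 12618, 10108 and 10002 in controls, 16016, 17950 and 15233 with cytochalasin D, and 14387, 15010 and 13367 with both drugs. In each, control replicate 1 was the highest control, and the cytochalasin D arrays were above all controls. The groups of the middle one did not overlap, with both drugs in between. Differences between cytochalasin D and control were 0.71 (SE 0.14, adjusted p = 0.0704) and 0.59 (SE 0.11, adjusted p = 0.0548), neither of which passed. Both passed without control replicate 1 (adjusted p = 0.033 and 0.019) and with an intensity trend in the prior of limma (adjusted p = 0.0478 and 0.0377). The middle one also passed with 1 added to the intensities (adjusted p = 0.0463) and after quantile normalization (adjusted p = 0.0488).

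The remaining Actb probe sets differ from these and from each other. Probe set 1436722_a_at read 17438, 16272 and 16265 in controls, 18961, 21240 and 18774 with cytochalasin D, and 18263, 18883 and 17924 with both drugs, a difference of 0.24 with cytochalasin D (95% interval 0.11 to 0.37, adjusted p = 0.125). Probe set 1419734_at read 651, 255 and 376 in controls, 373, 333 and 203 with cytochalasin D, and 484, 332 and 274 with both drugs. Its groups overlapped, replicate 1 was the highest array of each group, and its difference with cytochalasin D was -0.42 (95% interval -1.34 to 0.51, adjusted p = 0.884). Of the 5 Actb probe sets 1 thus rose with cytochalasin D, 3 had positive differences that did not pass, and 1 had a negative difference that did not pass.

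The position along the transcript can be compared with a second gene. The ratio of the 3′ to the 5′ Actb reading was 1.64, 2.07 and 2.10 in controls, 1.47, 1.47 and 1.67 with cytochalasin D, and 1.61, 1.67 and 1.91 with both drugs. The groups overlapped, but within each replicate number the control had the highest ratio and cytochalasin D the lowest. For Gapdh, a glycolytic enzyme with the same kind of control probe sets, the ratio lay between 0.770 and 0.834 on all 9 arrays, also with overlap between groups. The 3 Gapdh control probe sets differed by 0.03 to 0.05 between cytochalasin D and control, and none passed. How much RNA quality contributes to the Actb ratio was not tested; the Gapdh values are its measured counterpart.

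**Figure D2:**
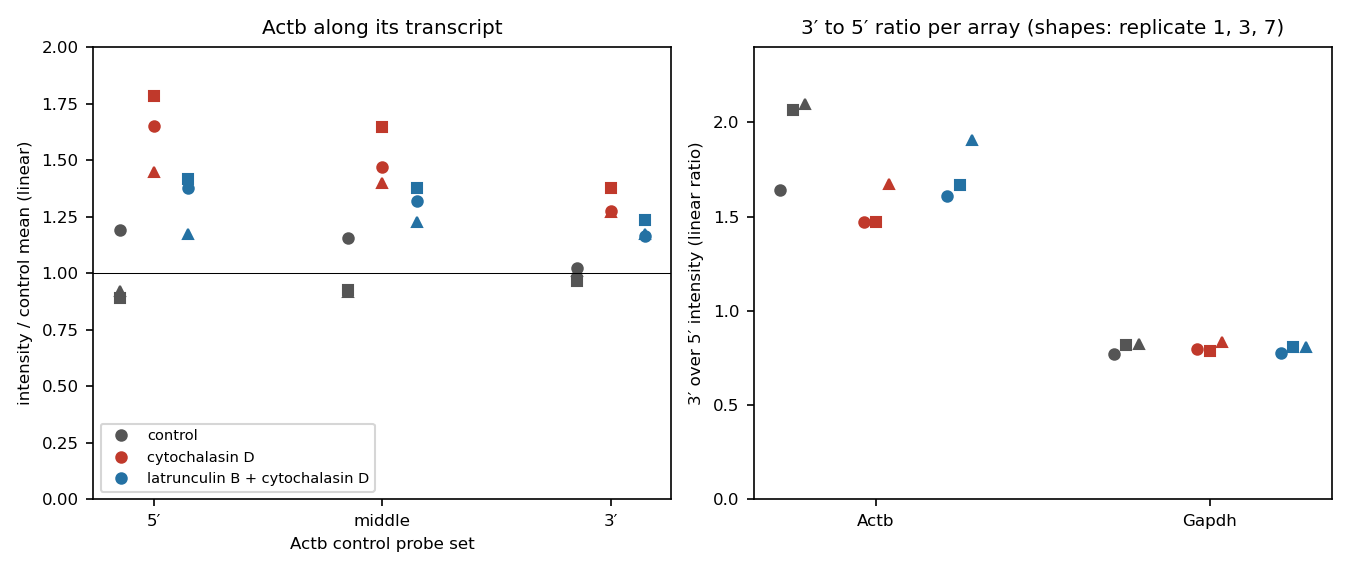
Left, intensity of the 5′, middle and 3′ Actb control probe sets divided by the control mean of each (linear axis from 0), per array and group. Right, 3′ over 5′ intensity ratio per array for Actb and Gapdh in the same colours; the Actb ratio spans 1.47 to 2.10 and the Gapdh ratio 0.770 to 0.834.

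Counted together, 7 of the 11 tested actin probe sets rose with cytochalasin D and 0 fell, for Acta1, Acta2 (3 probe sets), Actg2, Actb (1 probe set) and Actg1. Among all 27043 probe sets tested, 1.57% were called in this comparison, 1.15% higher and 0.422% lower. At an unadjusted p under 0.05 in limma, 10 of the 11 were higher and still 0 lower, against 10.2% of all tested probe sets in either direction. The groups did not overlap for 10 of the 11, against 11.5% of all tested probe sets. With both drugs 1 of 11, that of Actg1, rose against controls, where 0.111% of all probe sets were called and 0.0998% were called higher. With replicate numbers as a block this comparison gave 121 calls (0.447%) in place of 30, and 1 actin probe set was called there too. The groups were apart for 8 of 11, against 8.08% of all. Against both drugs, cytochalasin D was higher for 4 of 11 (Acta1, Actg2 and the dim Acta2 probe sets), where 0.259% of all probe sets were called and 0.248% were called higher, and the groups were apart for 9 of 11, against 6.26% of all. Probe sets that passed the filter through the groups in which they were high are among these counts, so the counts describe the members and support nothing further. The median log2 differences of the 11 were 0.71, 0.39 and 0.30 in these comparisons, and those of all tested probe sets lay within 0.01 of 0. Comparisons that share arrays are not independent of each other, and several probe sets may read the same transcripts.

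**Figure D3:**
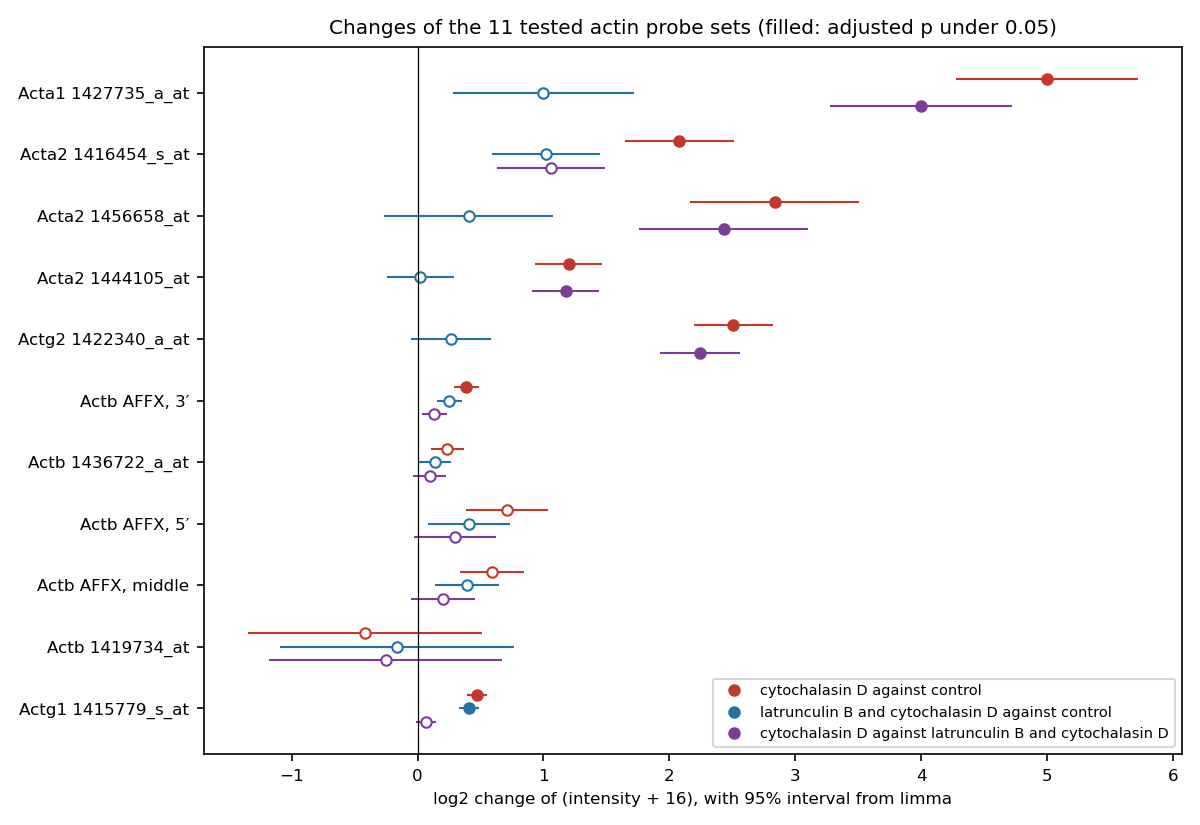
Log2 change of (intensity + 16) for the 11 tested actin probe sets in the 3 comparisons, with 95% intervals from limma; filled points have an adjusted p under 0.05. The muscle isoforms spread from 1.20 to 5.00 with cytochalasin D, while Actg1 and the Actb probe sets stay below 1.

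Whether 2 isoforms changed unequally was taken from differences between leading probe sets within each array, the leading one being the brightest tested probe set of a gene. With 3 arrays against 3, the exact permutation test (two-sided) cannot go below p = 0.1, and of 30 such differences the smallest adjusted p was 0.12, so none could pass. The difference between cytochalasin D and control was larger by 2.92 for Acta1 than for Acta2 on the log2 scale: the within-array difference ran from -7.41 to -6.73 in controls and from -4.61 to -3.52 with cytochalasin D, without overlap. It was 3.70 with 1 in place of 16 added to the intensities and 1.75 with 64 added. For the main Acta2 probe set it was larger by 1.61 than for Actg1 with cytochalasin D and by 0.61 with both drugs. The latter depended on the probe set. With both drugs 1456658_at changed by 0.408 and 1444105_at by 0.02, against 0.406 for Actg1. With 1 in place of 16 added, 1456658_at changed by 1.13 with both drugs and Actg1 by 0.41. The excess of Actg2 over Acta2 with cytochalasin D was 0.43 (p = 0.2, exact permutation test), and this was 1.40 with 1 in place of 16 added to the intensities, -0.62 with 64 added, and -0.33 when the probe set 1456658_at stood for Acta2. With 1444105_at for Acta2 it stayed positive, the changes being 2.51 for Actg2 and 1.20 for that probe set. The excess of Actg1 over the 3′ Actb probe set was 0.09 with cytochalasin D, but -0.24 and -0.12 against the 5′ and middle ones, so the order of the cytoplasmic isoforms depended on the probe set.

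The promoters of actin genes are shown because SRF is known to bind such elements in them. Only 4 of the 6 genes had a promoter in the reference used here, and those of Actb and Actg2 were not available. The sequences are the 250 bases before the annotated start, from RefSeq on build GRCm38.p6, 5′ to 3′ on the gene's own strand. Capitals mark CArG boxes (CC, then 6 bases that are A or T, then GG) and boxes of the same form with 1 G or C among the 6. All 4 genes lie on the minus strand: Acta1 at chr8:123894776-123895025, Acta2 at chr19:34255374-34255623, Actg1 at chr11:120348496-120348745 and Actc1 at chr2:114052876-114053125.
Acta1: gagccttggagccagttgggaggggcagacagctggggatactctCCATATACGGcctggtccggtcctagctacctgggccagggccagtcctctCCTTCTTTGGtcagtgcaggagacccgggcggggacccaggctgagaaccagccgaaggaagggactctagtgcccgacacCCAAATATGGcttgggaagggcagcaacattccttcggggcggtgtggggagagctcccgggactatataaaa
Acta2: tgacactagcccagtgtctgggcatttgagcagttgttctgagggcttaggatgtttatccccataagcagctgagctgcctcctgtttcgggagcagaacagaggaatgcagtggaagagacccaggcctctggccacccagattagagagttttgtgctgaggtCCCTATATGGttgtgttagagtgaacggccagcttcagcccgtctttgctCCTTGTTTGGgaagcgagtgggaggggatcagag
Actg1: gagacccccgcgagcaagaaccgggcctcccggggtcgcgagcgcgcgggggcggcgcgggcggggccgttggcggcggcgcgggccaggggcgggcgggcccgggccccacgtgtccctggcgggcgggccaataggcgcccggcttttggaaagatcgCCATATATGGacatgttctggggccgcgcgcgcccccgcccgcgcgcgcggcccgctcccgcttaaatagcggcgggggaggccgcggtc
Actc1: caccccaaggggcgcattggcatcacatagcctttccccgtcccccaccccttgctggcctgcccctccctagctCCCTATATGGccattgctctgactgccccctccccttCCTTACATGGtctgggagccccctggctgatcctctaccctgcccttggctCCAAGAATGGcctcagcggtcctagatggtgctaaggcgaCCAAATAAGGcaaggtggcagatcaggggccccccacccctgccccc
The CArG box reads the same form on both strands, so 1 search covers both, and no 2 matches overlapped here. Of 32851 RefSeq promoter windows of this length, 1.47% held a CArG box, and 8.59% held one or a box with 1 G or C.

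Acta1 held the box CCAAATATGG at 73 to 64 bases before the start, with CCATATACGG (205 to 196) and CCTTCTTTGG (154 to 145) farther out, each with 1 G or C in the core. Acta2 held no complete CArG box in this window but 2 of the second kind, CCCTATATGG at 84 to 75 and CCTTGTTTGG at 34 to 25. Actg1, which rose in both drug groups, held a single match, CCATATATGG, at 90 to 81. Actc1, the isoform at the bottom of the scale in these cells, held CCAAATAAGG at 47 to 38 and 3 boxes with 1 G or C. A match is a stretch of letters and not a measured site.

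**Figure D4:**
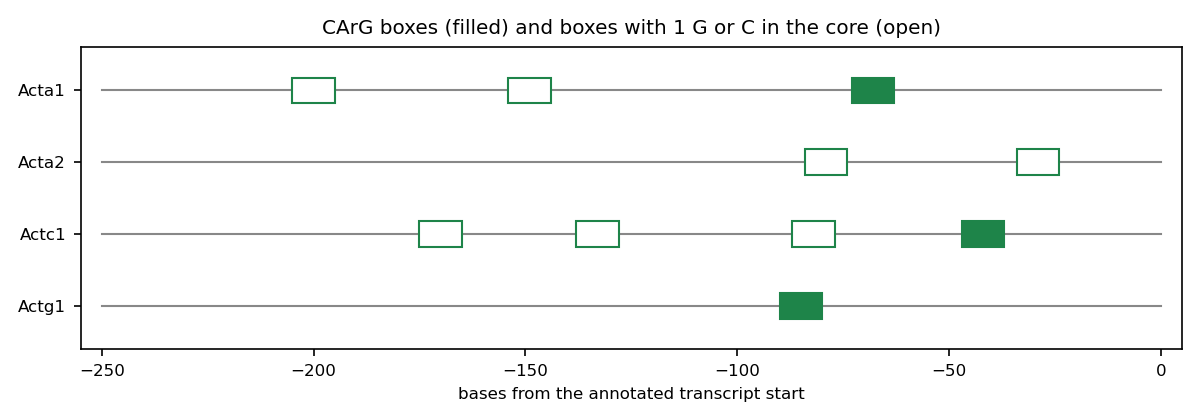
Positions of CArG boxes (filled) and of boxes with 1 G or C in the core (open) in the 250 bases before the annotated start of 4 actin genes. Acta1 has 1 filled and 2 open boxes, Acta2 has 2 open, Actc1 has 1 filled and 3 open, and Actg1 has 1 filled box at 90 to 81 bases before the start.

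Other cytoskeletal targets of MRTF and SRF moved with the actin genes. Their list was chosen with earlier results of these data known, so its counts describe the members and support nothing further. Of 29 tested members of a list of such targets, 22 rose with cytochalasin D and 0 fell, with a median log2 difference of 1.34. With both drugs 4 rose against controls (Srf, Tpm4, Csrp1 and Ccn1), with a median of 0.59. Against both drugs cytochalasin D was higher for 6 (Cnn1, Csrp1, Fhl1, Itga5, Ccn2 and Ankrd1), or 3 with the replicate block, with a median of 0.65. Of all tested probe sets, 1.15%, 0.0998% and 0.248% were called higher in these comparisons, in that order. At an unadjusted p under 0.05 in limma, 0 members were lower in any comparison, and 27, 19 and 25 were higher, where 10.2%, 5.28% and 4.22% of all tested probe sets passed in either direction. Cnn1, the smooth muscle protein calponin, went from 4.59 ± 0.0435 in controls to 37.0 ± 3.59 with cytochalasin D and 5.90 ± 0.484 with both drugs (SD, n = 3), the order of Acta1 and Actg2. Its controls were below the filter (40th percentile 6.16 to 6.27 on those arrays), so its being tested depended on the groups in which it was high. Tpm4, a non-muscle tropomyosin, went from 3492 ± 134 to 6273 ± 197 and 5280 ± 245 (SD, n = 3). It was called against controls in both drug groups as Actg1 was, and for both genes the mean with both drugs lay between the others. Csrp1, a LIM protein of actin bundles, went from 420 ± 45.5 to 1365 ± 109 and 761 ± 48.0 (SD, n = 3), with both drugs in between. Of the 27 list genes with a promoter in the table, 9 (33.3%) held a CArG box in the same 250 bases, against 1.62% of all genes; such lists were drawn up partly from this element.

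Among the factors themselves only Srf was called. Its intensity was 187 ± 30.9 in controls, 1475 ± 311 with cytochalasin D and 827 ± 164 with both drugs (SD, n = 3), a rise of 2.87 with cytochalasin D (adjusted p = 0.00192). Mrtfb, which encodes a coactivator of SRF, differed by 0.18 with cytochalasin D (adjusted p = 0.424), and Myocd, the cardiac and smooth muscle relative of the MRTFs, stayed at 5.41 to 5.60 on all arrays and was not tested. Srf was the 1 called of 5 tested factors and stands in the list of targets too.

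Of 18 tested genes of monomer binding and filament turnover, 2 rose with cytochalasin D: Dstn, the depolymerizing factor destrin, by 0.83 (adjusted p = 0.00117) and Tmsb4x, the monomer-binding thymosin beta-4, by 0.53 (adjusted p = 0.00269). Of all tested probe sets 1.15% were called higher in this comparison. With the replicate block 5 of the list were called higher, against 2.33% of all tested probe sets. Wdr1, a cofactor of cofilin, had a control intensity of 900 ± 348 and, after cytochalasin D, of 2502 ± 535 (SD, n = 3; adjusted p = 0.0739), and Capg, a capping protein, differed by 0.20 (adjusted p = 0.26). The list median was 0.11. Of 16 tested genes for actin folding and processing, 1 rose: Pdcl3, a cofactor of the chaperonin that folds actin and tubulin, by 0.77 (2627 ± 40.3 to 4491 ± 30.4, SD, n = 3, adjusted p = 0.00109), while the chaperonin subunit Cct4 differed by -0.07 (adjusted p = 0.563). Dstn and Pdcl3 were also higher with cytochalasin D than with both drugs, by 0.40 and 0.41 (adjusted p = 0.0489 and 0.0343), and neither passed there with the replicate block. Of 7 tested actin-related genes, which share the fold of actin but build no microfilaments, 0 were called in any comparison. Actl6a (-0.22, adjusted p = 0.282) and Actr6 (-0.42, adjusted p = 0.355) had the smallest adjusted p with cytochalasin D. In limma with the replicate block Actr6 was called lower there (adjusted p = 0.0195). At an unadjusted p under 0.05 in limma, 1 was higher and 2 lower with cytochalasin D, against 10.2% of all tested probe sets.

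Markers of differentiated smooth muscle were checked beside Acta2 and Actg2. Of 5 tested, 0 were called by limma in any comparison, and 2 were higher with cytochalasin D at an unadjusted p under 0.05, which 10.2% of all tested probe sets passed. This list leaves out the smooth muscle protein Cnn1, and also Tagln and Myl9, which stood among the targets of MRTF and SRF. They rose with cytochalasin D by 1.36, 3.28 and 3.56 (limma, adjusted p = 0.000303, 0.00864 and 0.00536). The summed level of the 7 listed was 396 to 511 in controls, 596 to 768 with cytochalasin D and 400 to 540 with both drugs, and its part in the actin values was not tested; Myh11, the smooth muscle myosin heavy chain, stayed at 8.12 to 8.56, and Des (desmin) at 6.73 to 8.28. Mylk, the myosin light chain kinase, differed by 0.66 with cytochalasin D (adjusted p = 0.245) and Hspb6, a small heat shock protein, by 0.78 (adjusted p = 0.317). The leukocyte and epithelial lists held 0 calls among 3 and 2 tested members (at an unadjusted p under 0.05, which 10.2% of all probe sets passed, 1 leukocyte marker was lower with cytochalasin D), and no endothelial marker passed the filter; summed levels were 266 to 427, 31.6 to 36.6 and 18.3 to 19.0 over all arrays. In bulk RNA, more RNA per cell and more cells with that RNA cannot be told apart.

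The genes whose pattern over the 9 arrays was most like that of 2 actin isoforms were found by Pearson's r among 12655 other genes, as a description of arrays that share their groups. Closest to Acta1 were Pkp2, the desmosomal protein plakophilin 2 (r = 0.993), Gcnt2, a glycosyltransferase (0.992), Tuft1 (0.991), Arc, an activity-regulated protein of neurons (0.987), and Cnn1 (0.987). Arc went from a mean of 5.42 in controls to 94.2 with cytochalasin D and 12.7 with both drugs, and Gcnt2 from 8.38 to 138 and 26.3, with both drugs between the other groups. The control means of Arc and Cnn1 were below the filter, so their being compared depended on the groups in which they were high. Closest to the main Acta2 probe set were Myl9, the regulatory light chain of myosin (r = 0.998), Tagln, the actin-binding protein transgelin (0.996), Fhl2, a LIM protein (0.992), Zfp281 (0.991) and Rab23 (0.987). Myl9 went from a mean of 126 to 1568 and 420 and Tagln from 483 to 4408 and 1376, also in that order, as for Acta2. None of the 5 genes closest to Acta1 was among the 5 closest to Acta2, which depends on the cut at 5. The Acta1 and main Acta2 probe sets had r = 0.917 with each other.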

How the data were processed

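RNA of 9 cultures was measured on Affymetrix arrays. The authors deposited linear, normalized intensities. MAS5 and GCRMA both appear in the submitters' processing notes, which do not say which of them gave these values, and no genome build is given for them in the sources used here. No 2 of the arrays were identical. Probe sets were named from the platform annotation, with symbols updated through gene identifiers by a RefSeq table of assembly GRCm38.p6; 34958 carried 1 symbol, 932 several and 9211 none. Control probe sets without a mouse symbol (51) were left out.

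Intensities were changed to log2(intensity + 16), which understates changes of dim probe sets. A probe set was tested if it was above the 40th percentile of its array on at least 3 arrays (27043 were). Linear models were fitted to all 9 arrays with limma 3.58.1 in R 4.3.3 (lmFit, eBayes), 1 coefficient per group. P-values are two-sided and were adjusted over all tested probe sets (Benjamini-Hochberg), and a call is an adjusted p under 0.05. The model was tested on simulated data with noise drawn independently for each array and effects placed only in brighter probe sets. That run does not cover deviations shared by arrays of the same number, nor dim probe sets. The number of arrays limits the precision.

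Genes outside the members were named by a rule: up to 4 per list with the smallest adjusted p for cytochalasin D against control, and the 5 most correlated with Acta1 and with Acta2; single cell type markers, Myocd, Gapdh and genes called in the other comparisons were named after their values were seen. Lists use the brightest tested probe set of a gene. The members and lists were chosen with earlier results of these data known. Arrays with the same number deviated together with both drugs and control (r = 0.413 to 0.834) and between the drug groups (0.411 to 0.756), and the titles give that number.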

Additional observations from a re-analysis of the deposited data

How the results depend on the processing

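Of 561 recomputed log2 changes of actin probe sets, 2 reversed: the change of Actb 1419734_at with both drugs against control ran from -0.47 to 0.18 with 1 array left out, being 0.18 without control replicate 1 and 0.01 without replicate 7 of the double-drug group. Of 130 recomputed differences between actin genes, 7 reversed. Those of Actg2 minus Acta2 became -0.62 with 64 added and -0.33 with 1456658_at for Acta2, and -0.19 with that probe set between the drug groups. Acta2 minus Actg1 with both drugs became -0.38 with 1444105_at, which was near or under the array median in both groups, so that sign carries no weight. With 1456658_at for Acta2 the changes with both drugs were nearly equal, 0.408 for that probe set and 0.406 for Actg1. Actg1 minus Actb with cytochalasin D became -0.24 and -0.12 with the 5′ and middle Actb probe sets, and with both drugs -0.0035 with the 5′ one. The cause was not tested.

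Counts of called probe sets moved as follows. For cytochalasin D against control, 424 became 1047 with the replicate block and 158 in a fit on 6 arrays, and ran from 229 to 479 with 1 array left out, the low counts being those without control replicate 3 (238) or 7 (243), cytochalasin D replicate 3 (229) or double-drug replicate 3 (277). For both drugs against control, 30 became 14 with 64 added, 8 without the filter, 15 after quantile normalization, 121 with the replicate block, 1 on 6 arrays and 48 with an intensity trend, and ran from 0 to 42 with 1 array left out. For cytochalasin D against both drugs, 70 became 16 without the filter and 9 on 6 arrays, and ran from 3 to 59. With the replicate block the 5′ and middle Actb probe sets passed for cytochalasin D against control (adjusted p = 0.0389 and 0.0446), where numbers did not pair all arrays (lowest correlation 0.0763; 5 of 6 arrays correlated best with their own number); no other actin call changed with it. In that comparison it also raised the turnover list from 2 to 5 called higher, adding Wdr1 (adjusted p = 0.0193), Cfl1 (0.0354) and Cap1 (0.0429), and called Actr6 lower (adjusted p = 0.0195) and the fibroblast marker Thy1 higher (0.0363). In a fit on 6 arrays Acta1, Actg2 and both dim Acta2 probe sets lost their calls against both drugs (adjusted p = 0.0815, 0.0551, 0.216 and 0.135), and Actg1 with both drugs its own (0.0709). The dim Acta2 probe sets also lost theirs without the filter (0.0851 and 0.0593), and 1456658_at with 64 added (0.105). Precision is limited by 3 arrays a group and, for probe sets near the bottom of the scale, by unknown background.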
